A study of Drosophila virilis and Drosophila willistoni and Drosophila miranda with 119 samples.

Results

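The Wnt signal transduction genes arm, dsh, Axn, Apc2, sgg, pan, fz, fz2, arr and nkd were picked by symbol, with earlier results of these data known, and all 10 were found among the 17674 genes of a table of Drosophila orthologs. The study sequenced RNA from single embryos at stage 5, when the blastoderm forms cells and the zygotic genome is active, and at stage 2, when the mRNA present was laid down by the mother. In all, 55 stage 5 and 64 stage 2 embryos of 14 species were used, in 27 groups of 3 to 7 embryos. The authors deposited 1 value per gene, species and stage, in FPKM (fragments relative to the length of the transcript and the size of the library), with the embryos of a group already combined. Species were therefore the replicates, 13 of them with both stages and D. melanogaster with stage 2 only.

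The stage 5 and stage 2 embryos came from D. simulans, D. sechellia, D. mauritiana, D. yakuba, D. santomea and D. erecta, which with D. melanogaster form the melanogaster subgroup. The other species were D. ananassae, D. pseudoobscura, D. persimilis, D. miranda, D. willistoni, D. mojavensis and D. virilis. Strains are named for 2 species. The D. miranda embryos had MSH22 mothers and SP138 fathers, and the D. pseudoobscura embryos had Flagstaff 14 mothers and PP1134 fathers. For these species the stage 5 embryos are labelled as late stage 5 with a sex, and the RNA as total RNA, whereas polyA RNA is given for the others. A D. pseudoobscura stage 2 embryo is marked as possibly unfertilized. Material of D. melanogaster had been mixed into the stage 2 samples of D. virilis and into all samples of D. mojavensis, D. persimilis, D. santomea, D. sechellia and D. simulans. The genes of D. santomea carry identifiers of D. yakuba. No sample carried a mutation or a treatment according to the labels.

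Wnt proteins such as Wingless bind a Frizzled receptor together with the co-receptor Arrow, and Dishevelled passes the signal into the cell. Without a ligand, Axin and APC proteins hold Armadillo, the fly beta-catenin, for phosphorylation by the kinase Shaggy, and Armadillo is destroyed. With a ligand, Armadillo accumulates and acts with the DNA-binding factor Pangolin (TCF) on target genes, among them naked cuticle, which encodes an inhibitor of the pathway. In the Drosophila embryo the pathway is best known for keeping the borders within each segment, and Armadillo is also a part of the adherens junction.

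The stage labels were set against known stage genes. The mRNAs of osk, bcd and aret, which are maternal, were lower at stage 5 in 13 of 13 species, and those of the zygotic genes Kr, ftz and twi were higher at stage 5 in 13 of 13. Of 7 eggshell genes of the ovary 6 were in the table, and their summed level lay between 1.27e-22 and 8.94 FPKM at stage 5 and between 0 and 4.50 FPKM at stage 2, with Cp16 at 0 in every value. How deeply the libraries were sequenced is unknown, so values carry neither a counting interval nor a floor.

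The first question was which Wnt transduction genes differed in mRNA level between the zygotic and the maternal stage across species. The per-species difference of log2(FPKM + 1), stage 5 minus stage 2, was tested with limma over 7225 genes, and calls required an adjusted p under 0.05 together with a mean change of 1 or more in size. Of the 10 genes 9 had values in enough species for this test. Of these, 7 rose (arm, Axn, Apc2, pan, fz2, arr and nkd), where 30.9% of all genes tested did. Because a gene was tested only with a mean of at least 1 FPKM over both stages, nkd, under 1 FPKM at stage 2 in every species, entered through stage 5 alone, and a rise was close to fixed for it. Since the genes were chosen with earlier results known, the count is a description. None of the 9 was called lower on the values as deposited, where 16.4% of all genes tested were. The change of fz was -0.82 (adjusted p = 0.00591 by limma), short of the size threshold. It was called lower under the 3 other scalings named below (-1.19, -1.13 and -2.07). More of all genes were then called lower too, 1646, 1503 and 2945 against 1185 as deposited. The median change of the 9 was 1.59, and that of all genes tested was 0.39. The calls for arm, pan, fz2 and nkd also passed under the 3 other scalings tried: median centring, quantile normalization, and the same total of genes below 100000 FPKM in every column. Whole embryos were measured, so more cells that express a gene and more of its RNA per cell cannot be told apart.

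Over species, 103 of the 120 pairs of a member and a species had a higher value at stage 5. In 7 of the 10 genes (arm, Axn, sgg, pan, fz2, arr and nkd) every species with a value was higher at stage 5. Of these 6 were tested, and 23.3% of all genes tested were higher in every species. The ranges over species did not overlap, with stage 5 above stage 2, for arm, sgg, pan and nkd. Of these 3 were tested, against 10.3% of all genes tested. Both counts of tested genes include nkd, which entered through stage 5 alone, so that its rise was close to fixed.

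**Figure D1:**
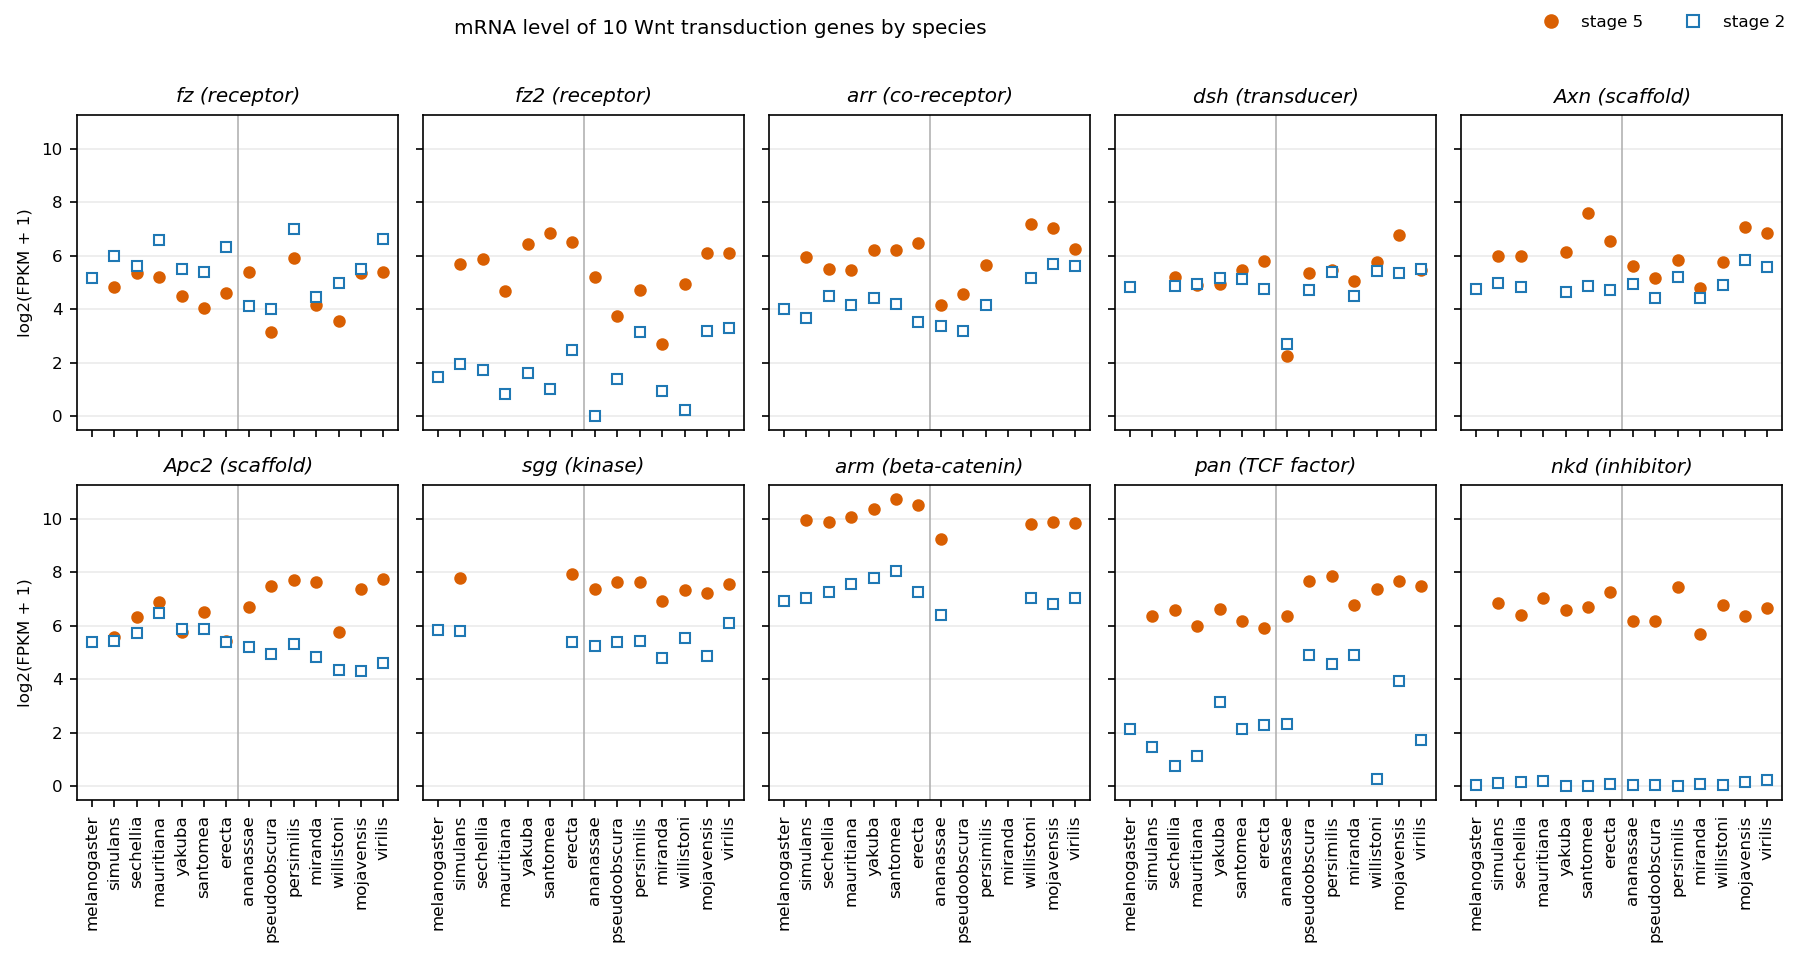
FPKM of each of the 10 genes on a log axis by species, with filled orange circles for stage 5 and open blue squares for stage 2, 1 value per species and stage. The vertical line separates the melanogaster subgroup (left) from the other species. The largest gap between the stages is that of nkd, at least 51.0 FPKM at stage 5 and at most 0.177 FPKM at stage 2.

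The receptors differed from each other. Frizzled 2 (fz2) encodes a Wingless receptor. At stage 5 its level was lowest in D. miranda with 5.41 FPKM, had a median of 50.3 FPKM and was highest in D. santomea with 116 FPKM. At stage 2 it was listed at 0 in D. ananassae, had a median of 2.03 FPKM and reached 8.74 FPKM in D. virilis. The stage 5 value was thus the higher one in 13 of 13 species, although the range of stage 5 overlapped that of stage 2 through D. miranda. The rise in log2(FPKM + 1) was 3.68 ± 1.33 (SD over 13 species, adjusted p = 7.57e-08 by limma), and 3.55 without D. ananassae. Over the 12 species with a value above 0 at stage 2, the median fold was 18.5.

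Frizzled (fz) encodes a receptor used both for Wingless and for the planar polarity of epithelia. At stage 5 its level ran between 7.79 FPKM in D. pseudoobscura and 59.2 FPKM in D. persimilis, with a median of 27.5 FPKM. At stage 2 it ran between 15.2 FPKM in D. pseudoobscura and 128 FPKM in D. persimilis, with a median of 44.7 FPKM. The ranges overlapped widely, and within species the stage 5 value was below the stage 2 value in 12 of 13. D. ananassae was the exception, with 41.04 FPKM at stage 5 and 16.3 FPKM at stage 2. The change was -0.82 ± 0.80 (SD, n = 13 species, adjusted p = 0.00591 by limma), short of the size threshold of 1. It passed that threshold when each species was centred on its own median change (-1.19, adjusted p = 0.000294), and under the other 2 scalings. With a single mean per clade it was -0.55 with an adjusted p of 0.344.

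The makeup of the pair of receptor mRNAs was unlike at the stages. The share of fz2 in the summed FPKM of fz and fz2 was lowest in D. miranda with 24.1%, had a median of 62.2% and was highest in D. santomea with 88.1% at stage 5. At stage 2 the share was 0% in D. ananassae, where fz2 was listed at 0, had a median of 4.34% and reached 15.5% in D. mojavensis. Every stage 5 share was above every stage 2 share. In 9 species fz2 made up more than 50% at stage 5, and in 0 species at stage 2. The species at or under 50% at stage 5 were D. mauritiana with 40.6%, D. ananassae with 46.5%, D. persimilis with 30.1% and D. miranda with 24.1%. The summed level of the pair had a median of 84.7 FPKM at stage 5 and 50.9 FPKM at stage 2, and was higher at stage 5 in 11 of 13 species. This share uses the same values as the changes above and adds no test.

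**Figure D2:**
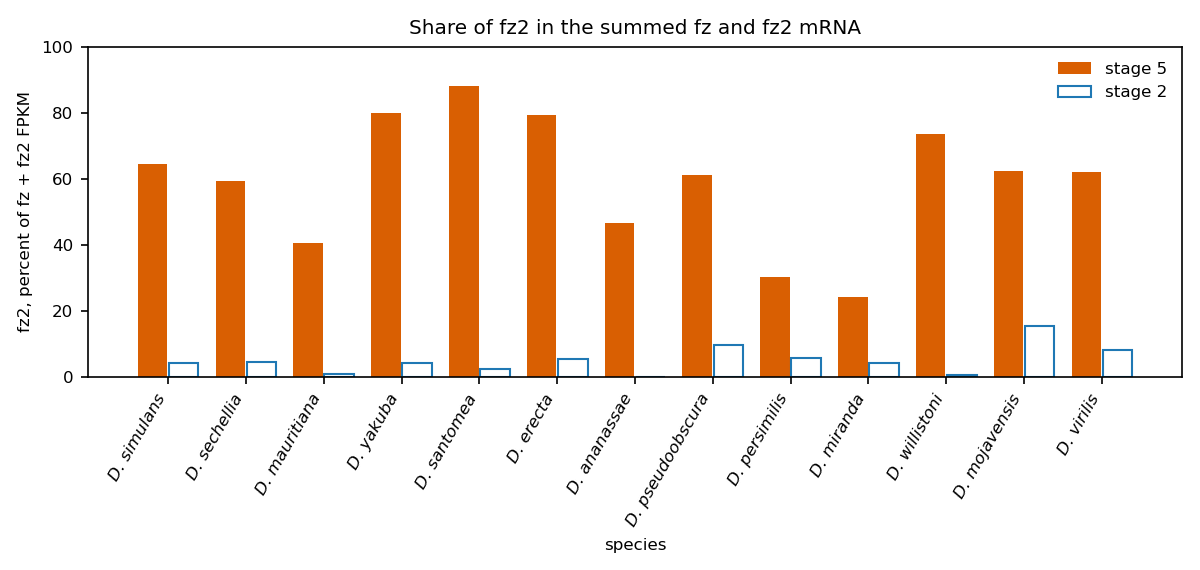
Share of fz2 in the summed fz and fz2 FPKM (percent, axis from 0) by species, filled bars for stage 5 and open bars for stage 2. Shares at stage 5 lie between 24.1% and 88.1%, all above those at stage 2, which lie between 0% and 15.5%.

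Arrow (arr) encodes the LRP-type co-receptor and had values in 12 species, with none for D. miranda. At stage 5 it was lowest in D. ananassae with 16.6 FPKM, had a median of 67.6 FPKM and was highest in D. willistoni with 146 FPKM. Its stage 2 level was lowest in D. pseudoobscura with 8.03 FPKM, had a median of 17.3 FPKM and was highest in D. mojavensis with 50.1 FPKM. All 12 species were higher at stage 5, and the ranges overlapped. The rise was 1.59 ± 0.66 (SD, n = 12 species, adjusted p = 3.66e-06 by limma), a median of 2.87-fold. With the same total in every column it was 0.33 with an adjusted p of 0.155.

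Dishevelled (dsh), the cytoplasmic relay, was not called. At stage 5 its level had a median of 41.5 FPKM, with 3.71 FPKM in D. ananassae as the lowest and 110 FPKM in D. mojavensis as the highest value. At stage 2 the median was 31.6 FPKM, the lowest value 5.53 FPKM in D. ananassae and the highest 44.4 FPKM in D. virilis. The stage 5 value was the higher one in 8 species and the lower one in 4. The change was 0.34 ± 0.53 (SD, n = 12 species, adjusted p = 0.106 by limma), close to the median of all genes, and -0.05 after centring on that median. Scaling to the same total gave -0.94. D. ananassae lay far below all other species at both stages.

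Of the genes of the destruction complex, Axin (Axn), the scaffold, rose in 12 of 12 species with a value. In stage 5 embryos it was lowest in D. miranda with 26.5 FPKM, had a median of 62.8 FPKM and was highest in D. santomea with 194 FPKM. In stage 2 embryos it was lowest in D. pseudoobscura with 20.1 FPKM, had a median of 28.6 FPKM and was highest in D. mojavensis with 56.1 FPKM. The ranges overlapped, through D. miranda, D. pseudoobscura, D. ananassae and D. willistoni at stage 5. The rise was 1.18 ± 0.64 (SD, n = 12 species, adjusted p = 6.54e-05 by limma), a median of 2.18-fold. Under 3 other scalings it was not called: it was 0.79 after median centring, 0.79 after quantile normalization, and -0.15, the opposite direction, with the same total in every column.

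Apc2, which encodes the APC protein of early embryos and epithelia, varied most between species relative to its mean among the genes called. Its stage 5 level was lowest in D. erecta with 42.1 FPKM, had a median of 104 FPKM and was highest in D. virilis with 216 FPKM. Its stage 2 level was lowest in D. mojavensis with 19.1 FPKM, had a median of 39.3 FPKM and was highest in D. mauritiana with 88.5 FPKM. It was higher at stage 5 in 12 of 13 species, and D. yakuba had 53.3 FPKM at stage 5 and 57.4 FPKM at stage 2. The rise was 1.43 ± 1.22 (SD, n = 13 species, adjusted p = 0.000822 by limma). Its spread followed the clades in steps, described further on, rather than a single split of the species. With the same total in every column it was 0.13, with an adjusted p of 0.711, and after quantile normalization 0.86, under the size threshold. With the species tree taken into account it was 2.38 (adjusted p = 0.000262).

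Shaggy (sgg), the GSK3 kinase, had values in only 9 species, under the minimum of 10 for the test. At stage 5 it had between 120 FPKM in D. miranda and 244 FPKM in D. erecta, with a median of 188 FPKM. The stage 2 values lay between 26.5 FPKM in D. miranda and 68.7 FPKM in D. virilis, with a median of 40.99 FPKM. Each stage 5 value was above every stage 2 value. The change was 2.10 ± 0.33 (SD, n = 9 species), a median of 4.53-fold. With the minimum lowered to 8 species, a choice made after seeing the data, the rise passed with an adjusted p of 1.06e-07 by limma.

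Armadillo (arm) was the most abundant of the 10 at both stages. It had values in 10 species, with none in D. pseudoobscura, D. persimilis and D. miranda. At stage 5 it was lowest in D. ananassae with 613 FPKM, had a median of 969 FPKM and was highest in D. santomea with 1708 FPKM. In stage 2 embryos it was lowest in D. ananassae with 84.2 FPKM, had a median of 142 FPKM and was highest in D. santomea with 261 FPKM. The ranges lay well apart, and the order of the extreme species was the same at the stages. The rise was 2.81 ± 0.24 (SD, n = 10 species, adjusted p = 3.03e-10 by limma), the smallest spread over species among the 10 genes, and per species it ran between 2.51 in D. mauritiana and 3.27 in D. erecta. The median fold was 6.91, and after quantile normalization the rise was 1.40.

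Pangolin (pan), the TCF factor that carries Armadillo to its target genes, rose in 13 of 13 species. At stage 5 it was lowest in D. erecta with 58.7 FPKM, had a median of 97.4 FPKM and was highest in D. persimilis with 234 FPKM. At stage 2 it was lowest in D. willistoni with 0.211 FPKM, had a median of 3.88 FPKM and was highest in D. pseudoobscura with 29.2 FPKM. The stages did not overlap, but the stage 2 level differed widely between species. D. pseudoobscura, D. persimilis and D. miranda had 22.7 to 29.2 FPKM at stage 2, and D. willistoni and D. sechellia less than 1 FPKM. The rise was 4.25 ± 1.41 (SD, n = 13 species, adjusted p = 2.5e-08 by limma), with 1.88 in D. miranda as the smallest and 7.09 in D. willistoni as the largest change.

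Naked cuticle (nkd), the inhibitor that binds Dishevelled, had the largest change. The stage 5 level was lowest in D. miranda with 51.0 FPKM, had a median of 99.4 FPKM and was highest in D. persimilis with 173 FPKM. The stage 2 level was lowest in D. persimilis with 0.00578 FPKM, had a median of 0.0549 FPKM and was highest in D. virilis with 0.177 FPKM. No species reached 1 FPKM at stage 2, where D. melanogaster had 0.033 FPKM, so a fold would rest on values near 0. The rise was 6.53 ± 0.48 (SD, n = 13 species, adjusted p = 3.46e-14 by limma), for a gene that passed the filter on the mean only through its stage 5 values. It was the only one of the 10 genes below 1 FPKM in every species at stage 2.

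**Figure D3:**
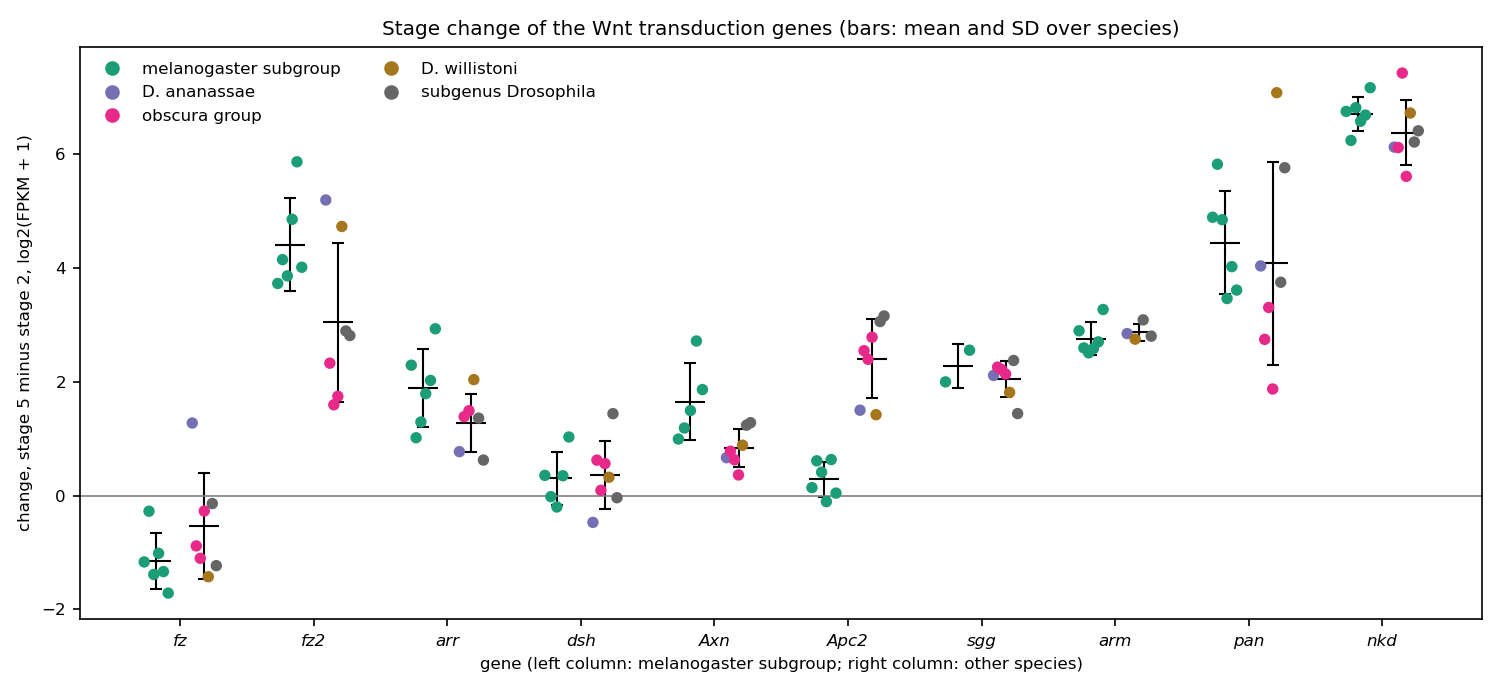
Stage change, the difference of log2(FPKM + 1) at stage 5 minus stage 2, of each gene by species, with the melanogaster subgroup left of the other species, bars for the mean and SD, and colours for the clade (obscura group: D. pseudoobscura, D. persimilis, D. miranda; subgenus Drosophila: D. mojavensis, D. virilis). Changes of Apc2 lie between -0.11 and 0.63 in the subgroup and between 1.42 and 3.16 in the other species, while those of nkd lie between 5.61 and 7.43 over all 13.

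D. melanogaster, with stage 2 values only, lay within the stage 2 range of the other species for all 10 genes. It had 122 FPKM of arm, 56.1 FPKM of sgg, 40.8 FPKM of Apc2, 34.7 FPKM of fz, 27.7 FPKM of dsh and 26.2 FPKM of Axn. It had 15.3 FPKM of arr, 3.38 FPKM of pan and 1.77 FPKM of fz2.

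Levels, which FPKM gives per length of transcript, put the genes in a different order at the stages. At stage 5 the order of the medians was arm, sgg, Apc2, nkd, pan, arr, Axn, fz2, dsh and fz. At stage 2 it was arm, fz, sgg, Apc2, dsh, Axn, arr, pan, fz2 and nkd. Several neighbours did not keep their order within species. At stage 5, Apc2 was above nkd in 6 of 13 species, nkd above pan in 4 of 13, arr above Axn in 2 of 11 and fz2 above dsh in 6 of 12. At stage 2, fz was above sgg in 5 of 9. The top gene was clear, with arm above sgg in 6 of 6 species at stage 5 and above fz in 10 of 10 at stage 2. The last place was nearly as clear at stage 2, where fz2 was above nkd in 12 of 13 species.

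Ratios within a species put arm against its partners. The ratio of arm to Axn had a median of 14.8 at stage 5 and 4.55 at stage 2, and was higher at stage 5 in 8 of 9 species. The ratio of arm to Apc2 had a median of 14.1 at stage 5 and 3.75 at stage 2, and was higher in 8 of 10. The ratio of arm to pan went the other way, with a median of 11.0 at stage 5 and 65.5 at stage 2, and was higher at stage 5 in 0 of 10. These ratios describe mRNA and rest on the same values as the changes.

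The second question was where the melanogaster subgroup differed from the other species. The stage change was compared between 6 and 7 species with limma, and called at an adjusted p under 0.05. Of the 9 members tested 1 was called, Apc2, with a lower change in the subgroup. Of all genes tested 10.0% were called, 6.41% with a lower change. The change of Apc2 averaged 0.29 ± 0.31 in the 6 subgroup species and 2.41 ± 0.70 in the 7 other species (SD), a difference of -2.12 (SE 0.32, adjusted p = 0.00134). Subgroup changes ended at 0.63 in D. santomea and the others began at 1.42 in D. willistoni, so the groups did not overlap; 5.22% of all genes tested had groups that did not overlap. The smallest subgroup change was -0.11 in D. yakuba, and the largest of the others was 3.16 in D. virilis. The other species were not alike. D. willistoni and D. ananassae lay nearest to the subgroup, the obscura group averaged 2.58, and D. mojavensis and D. virilis averaged 3.11. The widest gap lay within the other species, between D. ananassae and the obscura group, and not at the border of the subgroup. Leaving out each species in turn gave an adjusted p between 0.000629 and 0.00462. Without the species mixed with D. melanogaster material the difference was -1.95 with an adjusted p of 0.136, when 6 of all genes were called. The subgroup is a single clade, so its species are not independent. Neither clade means nor the species tree were used in the comparisons between these groups, and shared ancestry was not allowed for.

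Levels of Apc2 were also compared at each stage, though the differences at the stages were not tested against each other. At stage 5 Apc2 had 42.1 to 118 FPKM in the subgroup, median 66.7 FPKM, and 53.9 to 216 FPKM in the other species, median 181 FPKM. These ranges overlapped through D. willistoni and D. ananassae. Stage 2 embryos had 40.8 to 88.5 FPKM in the subgroup, D. melanogaster included, with a median of 52.03 FPKM, and 19.1 to 39.3 FPKM in the other species, with a median of 27.8 FPKM. Here the groups did not overlap, where those of 4.14% of all genes tested did not. On median-centred levels Apc2 was the 1 of 9 members called at stage 2, and the subgroup was 0.88 higher at stage 2 (SE 0.22, adjusted p = 0.0202 by limma), where 10.6% of all genes tested were called and 5.84% were higher. The stage 5 level differed by -1.13 (SE 0.38) with an adjusted p of 0.084, which was not called but reached 0.0182 without D. willistoni. Without the species mixed with D. melanogaster material the stage 2 difference was 0.79 with an adjusted p of 0.257.

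Pangolin was the 1 of 9 members called at stage 5, where 6.45% of all genes tested were called and 3.70% were lower. At stage 5 it had 58.7 to 97.4 FPKM in the subgroup, with a median of 76.5 FPKM, and 81.6 to 234 FPKM in the other species, with a median of 181 FPKM. Only D. ananassae among the other species fell in the subgroup's range. The centred level was 1.05 lower in the subgroup (a difference of -1.05, SE 0.27, adjusted p = 0.0317 by limma). This call was lost when D. sechellia, D. mauritiana, D. yakuba, D. santomea, D. erecta, D. pseudoobscura or D. persimilis was left out, with an adjusted p of at most 0.07. It was also lost without the species mixed with D. melanogaster material (-1.05, adjusted p = 0.379), without D. pseudoobscura and D. miranda (-0.99, adjusted p = 0.0782) and without the filter on the mean (-0.92, adjusted p = 0.0651). At stage 2 the subgroup had 0.707 to 7.90 FPKM of pan and the other species 0.211 to 29.2 FPKM, a difference of -1.42 (adjusted p = 0.233).

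The remaining members were not called between these groups in any of the 3 comparisons. The change of fz2 averaged 4.42 ± 0.81 in the subgroup and 3.05 ± 1.41 in the other species (SD, n = 6 and 7 species), a difference of 1.37 with an adjusted p of 0.15 by limma, and of 1.73 with 0.0438 without D. ananassae. The lowest changes of fz2, 1.60 to 2.33, were those of D. pseudoobscura, D. persimilis and D. miranda. The change of Axn averaged 1.65 ± 0.68 in the subgroup and 0.84 ± 0.33 in the other species, a difference of 0.82 (adjusted p = 0.12), which passed with 0.0461 after quantile normalization. The stage 2 level of arm was 0.60 higher in the subgroup with an adjusted p of 0.053, and 0.82 higher with 0.0335 when no filter on the mean was used. For nkd the difference in change was 0.33 (SE 0.31, adjusted p = 0.53), and for arm -0.11 (SE 0.25, adjusted p = 0.803).

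Other genes of the pathway were set beside these 10. Of 44 listed genes in 7 groups, 36 were tested. Of these 18 rose, 4 fell and 14 were not called, with a median change of 0.74 and the same background of 30.9% and 16.4%. The count of rises is a description, since wg, wntD, Notum, dally and otk passed the filter on the mean only through stage 5. With the same total in every column more of the 36 genes were called lower than higher. Of 7 Wnt ligands 3 were tested and were called higher. Of these, wg and wntD passed the filter on the mean only through stage 5, so that a rise was close to fixed for them. The mRNA of wg, the main ligand of the segmental pathway, had a median of 26.7 FPKM at stage 5 and 0.00908 FPKM at stage 2, and rose by 4.72 ± 0.58 (SD, n = 11 species, adjusted p = 2.45e-11 by limma). That of wntD, a feedback inhibitor of Dorsal, rose by 5.04 ± 1.84 (n = 13 species, adjusted p = 7.3e-08 by limma). The rise of wntD averaged 6.46 in the melanogaster subgroup and 3.82 in the other species. That difference was 2.64 (adjusted p = 0.0201 by limma), where 10.0% of all genes tested were called. Of the other pathway genes tested, only wntD and pygo passed for this difference. The subgroup is a single clade, and without the mixed species 6 of all genes were called. Wnt5, a ligand of Derailed in the nervous system, rose by 2.14 ± 2.55 (n = 10 species), higher in 8 of 10 and with an adjusted p of 0.0156 by limma. The call for Wnt5 was lost without the mixed species (1.14, adjusted p = 0.3), with 1 mean per clade (2.03, adjusted p = 0.209) and with the same total in every column (1.05, adjusted p = 0.181). The ligands Wnt2, Wnt4, Wnt6 and Wnt10 stayed below the filter, with stage 5 medians of 0.327, 0.275, 0.0459 and 0.0144 FPKM. Their highest stage 5 values were 9.73, 1.26, 2.53 and 8.15 FPKM, and the highest at stage 2 was 0.133 FPKM, of Wnt4. They were higher at stage 5 in 12, 13, 8 and 8 of 13 species.

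Of 6 genes for the secretion and handling of Wnt proteins 3 rose. They were Notum, which encodes an enzyme that removes the lipid of Wnt proteins (3.67 ± 0.59, n = 10 species), the glypican dally (2.52 ± 1.02, n = 13 species) and wls, the carrier that brings Wnt proteins to the surface (2.18 ± 0.46, n = 13 species). Notum and dally passed the filter on the mean only through stage 5, as did Swim. With the same total in every column wls was 0.86, under the size threshold. Not called were por with -0.45, dlp with -0.27 and Swim with 0.39. Thus the glypicans dally and dlp differed in their calls, though the difference between them was not tested.

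Of 6 other receptors 4 rose and 1 fell. The Ryk-type receptors drl and dnt rose by 4.56 ± 2.13 and 3.75 ± 0.42, the receptor-like otk by 3.49 ± 0.92 and Ror, named here after its value was seen, by 1.29 ± 1.12 (SD, n = 13 species each). For drl 12 species were higher at stage 5 and 1 was lower. Its stage 2 level had a median of 0.0207 FPKM but reached 105 FPKM, above its highest stage 5 value of 65.2 FPKM. The Frizzled family member fz4 fell by 2.64 on the log2(FPKM + 1) scale, with 0.983 to 11.8 FPKM at stage 5 and 18.1 to 40.8 FPKM at stage 2, and was lower at stage 5 in 13 of 13 species (adjusted p = 9.8e-08 by limma). Its ranges did not overlap. Of the 6 receptors, otk passed the filter on the mean only through stage 5. The stage 2 mean of drl, 8.10 FPKM, was far above its stage 2 median. The change of fz3 was -0.09 ± 1.08, which was not called.

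Of 10 partners and kinases of the destruction complex 2 rose, 3 fell and 5 were not called, with a median change of -0.41. The APC gene Apc had a median of 0.791 FPKM at stage 5 and 14.2 FPKM at stage 2, and its change was -2.71 ± 0.93, lower in 12 of 12 species (adjusted p = 6.67e-07 by limma). The mean change of its paralog Apc2 had the opposite sign, though the difference between these genes was not tested. Apc2 averaged only 0.29 in the melanogaster subgroup, and with the same total in every column it was 0.13, not called. The kinase gene par-1 fell as well, with a change of -1.71 ± 0.72 (n = 11 species), and so did dco, a casein kinase I gene, with -1.11 ± 1.10 (n = 13 species, lower in 10). When the species tree was taken into account, par-1 was -1.04 (adjusted p = 0.0558) and dco 0.08 (adjusted p = 0.932), and neither was called. The call for dco was also lost without D. yakuba (-0.97), without the mixed species (-1.10, adjusted p = 0.0754) and with 1 mean per clade (-0.76, adjusted p = 0.268). CkIalpha, the kinase that primes Armadillo, rose by 2.00 ± 0.34 (n = 12 species), and mts, the catalytic subunit of protein phosphatase 2A, by 1.97 ± 1.37 (n = 13 species). The stage 5 level of mts had a median of 912 FPKM but a highest value of 30199.63 FPKM, and its highest stage 2 value was 444 FPKM. After quantile normalization CkIalpha was 0.57 and mts 0.45, and with the same total in every column they were 0.64 and 0.64, not called in either case. With the species tree the call for mts was lost as well (1.92, adjusted p = 0.104). The F-box gene slmb, whose product marks Armadillo for breakdown, was not called (-0.44 ± 0.74), nor were gish, Tnks, CkIIalpha and CkIIbeta.

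Of 6 nuclear partners of Armadillo 3 rose: the corepressor genes CtBP (2.26 ± 0.15) and gro (1.96 ± 0.28, n = 12 species each), and hyx (1.09 ± 0.65, n = 13 species), whose product binds Armadillo. The coactivator genes lgs (-0.12), pygo (-0.03) and nej (0.16) were not called. The change of pygo averaged -0.85 in the melanogaster subgroup and 0.55 in the other species. That difference was -1.39 (SE 0.28, adjusted p = 0.00961 by limma), where 10.0% of all genes tested were called. None of the 3 stage calls (CtBP, gro and hyx) held after quantile normalization (CtBP 0.91, gro 0.78, hyx 0.54), nor with the same total in every column (CtBP 0.95, gro 0.66, hyx -0.21). The call for hyx was also lost after median centring (0.72) and without the mixed species (0.96). Of 6 planar polarity genes 3 were tested, dgo rose (1.28 ± 1.51, n = 13 species), and Vang and fy were not called. The call for dgo was lost with the same total in every column (0.25, adjusted p = 0.556), after median centring (0.91, adjusted p = 0.0475, under the size threshold), with the species tree (2.12, adjusted p = 0.0785) and without the mixed species (1.08, adjusted p = 0.0693). Of 3 partners of Armadillo at the adherens junction, shg (E-cadherin, 3.02 ± 0.70, n = 12 species) and alpha-Cat (1.88 ± 0.68, n = 11 species) rose, and p120ctn had values in 2 species only. The call for alpha-Cat was lost after quantile normalization (0.60) and with the same total (0.60).

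**Figure D4:**
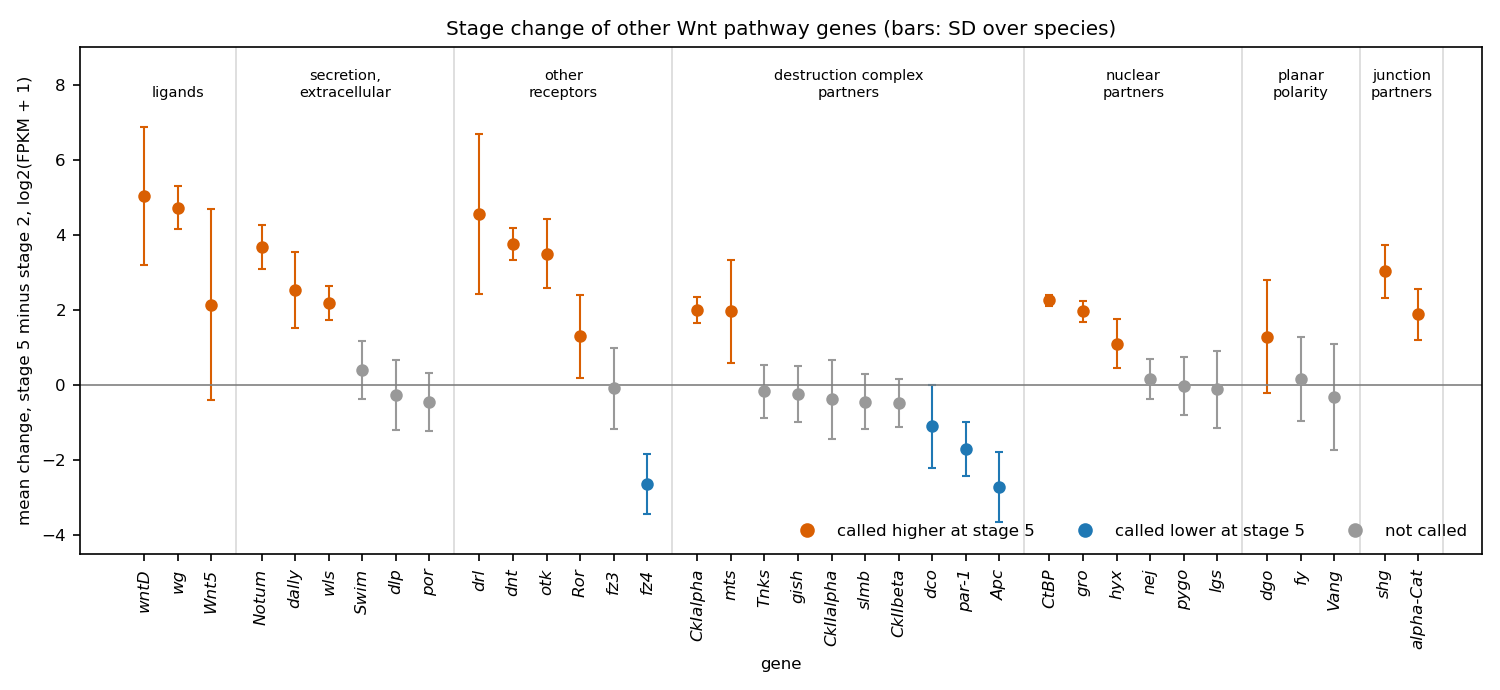
Mean stage change, in log2(FPKM + 1) at stage 5 minus stage 2, of the tested genes of 7 other groups of the pathway, with bars for the SD over species. Points above 0 are higher at stage 5, orange for genes called higher, blue for those called lower and grey for those not called. The ligands lie at 2.14 and above, whereas fz4, Apc, par-1 and dco lie at -1.11 and below.

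The genes most alike in pattern were sought by Pearson's r of log2(FPKM + 1) over all species and stages with a value. These points share libraries and the contrast of the stages, so r is a description. The pattern of nkd was matched closest by Ptr (r = 0.997) and KP78a (r = 0.997, 26 columns), and that of arm by Mcm7 and EF2 (r = 0.983 each, 20 columns). Closest to fz2 was dnt (r = 0.924, 26 columns), to pan Aac11 (r = 0.921) and to Apc2 eRF1 (r = 0.905). Closest to sgg was Nopp140 (r = 0.974, 18 columns), and over 24 columns each, sfl was closest to Axn (r = 0.923), Hlc to arr (r = 0.908) and lmgB to dsh (r = 0.881). The lowest best match was that of fz, with Dhc64C at r = 0.679.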

How the data were processed

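Per the labels, single embryos were staged under a microscope and sequenced on Illumina libraries. The submitters' processing notes name cutadapt (a read trimmer), TopHat2 (an aligner) and Cufflinks, Cuffdiff and Cuffnorm (which estimate transcript levels). Not given in the sources used here are versions and builds. The deposited values were taken as FPKM from those tools and from their range, since no file header names the unit. Header names of the wide table are shifted by 1 column against the values, which was allowed for. A second table, limited to the 3764 genes that all 14 species share, held the same values for these genes (101628 of 101628 compared). From either table, 27 columns were used. The D. melanogaster stage 5 column of each, 2 in all, matched no sample listed and was not used. Of the gene symbols 12881 match current symbols. Values of near-identical genes are uncertain.

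The 10 genes and the gene lists were chosen with earlier results of these data known. Outside the 10, up to 3 genes called higher and 3 called lower with the largest mean change were named per list, beside genes not called, and for each of the 10 the gene most alike in pattern. Genes with values in at least 10 of 13 species and a mean of at least 1 FPKM were tested (7225) on log2(FPKM + 1), a pseudocount of 1 that understates changes of low genes, with limma 3.58.1 in R 4.3.3 (eBayes with trend, two-sided, Benjamini-Hochberg). Because the authors' values combine the embryos of a group, n counts species and no test contains the spread between embryos. Species share ancestry, and the p-values treat them as independent except where clade means or the species tree were used. Those were used for the stage test only, not for the comparisons between groups of species. Levels compared between groups of species were centred on the median of their column. On simulated data of 7225 genes, 94% of 200 genes shifted by 2 were recovered in the stage test, with 3 false calls among the genes not shifted. The simulated species were independent and normally spread, so the simulation covers neither shared ancestry nor extreme values. Alternatives were another pseudocount, filter or scaling, clade means, phylogenetic least squares, and leaving out species.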

Additional observations from a re-analysis of the deposited data

Results flagged for a closer look

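The stage change of Apc2 differed between the groups of species, by -2.12 on the log2(FPKM + 1) scale in the melanogaster subgroup minus the other species, by limma's test of the difference. Of all genes tested, 10.0% were called for this difference. Without the species mixed with D. melanogaster material it was -1.95 for Apc2, with an adjusted p of 0.136 by limma. The subgroup is a single clade, and shared ancestry was not allowed for. In D. ananassae, dsh had a log2(FPKM + 1) level of 2.24 at stage 5, where the nearest of the 7 species outside the subgroup had 5.06. At stage 2 its level there was 2.71, and the nearest had 4.50. The stage 5 level of arm in D. ananassae, 9.26, lay under the other 3 of the 4 species outside the subgroup with a value, the nearest at 9.79. These 3 species values came from 57 groups examined, and chance sets apart about 1 in 20.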

How the results depend on the processing

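Leaving out each species in turn kept the 7 calls of the stage comparison, as did another pseudocount. All 9 tested genes kept their direction except dsh (-0.046 median-centred, -0.94 with the same total in every column) and Axn (-0.15, same total). The median change of all genes was 0.39 as deposited, 0.02 median-centred, 0.05 after quantile normalization and -0.66 with the same total, and the share of calls that were higher was 65.3%, 49.3%, 45.9% and 16.5%. Counts for same total were 4 members higher and 1 lower, 584 genes higher and 2945 lower, and 8 other pathway genes higher and 16 lower. After quantile normalization 1 member was lower, where 1503 of the 7225 genes were lower and 1273 higher. Axn (0.79) and Apc2 (0.86) were then under the size threshold, and 11 other pathway genes were higher and 8 lower. After median centring 1 member was lower, where 1646 of the 7225 genes were lower and 1599 higher, and Axn (0.79) was under the size threshold. The table of 3764 genes gave 4 members higher, 1134 genes higher and 624 lower, and 10 other pathway genes higher and 2 lower, with fewer genes to test. With phylogenetic least squares 589 genes were lower and dco was 0.0831. With the same total hyx was -0.21.

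Between the groups of species, leaving out the mixed species, which leaves few, gave 0 members with a lower change (6 genes called), 0 with a higher stage 2 level (18 genes) and 0 with a lower stage 5 level (2 genes). Without D. pseudoobscura and D. miranda, 362 genes were called for the change and 251 for the stage 5 level, with 0 members lower at stage 5. Without the filter 2 members were higher at stage 2 and 0 lower at stage 5. Quantile normalization gave 1 member with a higher change. None of the genes that turned direction here was called. For the change these were arm (0.0335, quantile), dsh (0.15 quantile, 0.0112 without mixed species, 0.0338 without D. pseudoobscura and D. miranda) and pan (-0.34, without those same species). At stage 2 they were dsh (-0.0391, quantile), fz2 (0.27 with a pseudocount of 0.1, 0.80 without mixed species), arr (0.02, without mixed species) and nkd (0.0748 without the filter, 0.037 without D. pseudoobscura and D. miranda). At stage 5 fz was -0.27 without those species. Leaving out single species gave, for the change, 454 to 887 genes called, 0 to 1 members higher, dsh -0.24 to 0.12 and pan -0.0031 to 0.87; at stage 2, dsh -0.24 to 0.18 and fz2 -0.47 to 0.0169; at stage 5, 288 to 674 genes, 0 to 2 members lower, arr -0.0878 to 0.48, dsh -0.41 to 0.30 and fz -0.17 to 0.24. The cause of these shifts was not tested.

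The stage test compared the stages within each species. Between embryos, no paired analysis was possible because the deposited columns combine the embryos of a group and carry no replicate number. Depth is unknown, so the precision of values near 0 cannot be given.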
